A study of Mus musculus with 16 samples.

Results

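The mitochondrial ribosomal protein genes were followed through the neonatal ventricle of WT and *Lrrc10*-/- mice after sham surgery or myocardial infarction. Members were taken as protein-coding genes whose mouse symbol starts with Mrpl or Mrps followed by a digit. The rule found 78 genes among the 51912 identifiers of the deposited table, of which 49 carry large subunit names (Mrpl) and 29 carry small subunit names (Mrps). All 78 had enough counts to be tested. Another 6 genes named in the same way are processed pseudogenes and were not counted as members.

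Ventricles were collected 7 days after surgery on postnatal day 1, with 4 libraries in each of 4 groups. WT SH and WT MI are WT mice after sham surgery and post-MI, and KO SH and KO MI are *Lrrc10*-/- mice after the same operations. The KO MI libraries carry the replicate numbers 1, 2, 3 and 7. By the study's methods the WT mice were C57BL/6 J animals from a supplier and the *Lrrc10*-/- line was made in the C57BL/6 background, so the loss of *Lrrc10* and other differences between the lines cannot be told apart. Infarction was made by ligation, and the whole ventricles above and below it were homogenized together. In such bulk tissue, fewer cells of a type and less RNA per cell cannot be told apart.

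The libraries held between 33783874 and 57470159 counts, of which the mitochondrial rRNA gene *mt-Rnr2* took 29.8% to 37.6%. By the study's methods rRNA had been depleted from the samples before the libraries were made. All 8 cardiomyocyte markers were detected in every group, with a sum between 27113 and 41793 CPM (counts scaled to library size). The sum of 8 skeletal muscle genes was 69.2 CPM in KO MI replicate 2 and 113 CPM in KO MI replicate 7, against 1.5 to 12.7 CPM in the other libraries. *Xist* was over 100 CPM in 2 libraries of each of KO SH, WT MI and KO MI and in 0 libraries of WT SH, although by the study's methods the sexes were balanced in the groups.

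The mitochondrial ribosome translates the few mRNAs of mitochondrial DNA, all of which encode core subunits of the respiratory chain and ATP synthase. Its 2 rRNAs are encoded by mitochondrial DNA itself, whereas its proteins are encoded in the nucleus, made by cytosolic ribosomes and imported. The small subunit holds the mRNA and reads the codons, and the large subunit joins the amino acids and is anchored to the inner membrane. The heart depends on this system more than most tissues, and inherited variants of several members cause cardiomyopathy in infants. Symbols do not always give the place of a protein: structures of the mammalian ribosome put the products of *Mrps18a* and *Mrps30* in the large subunit, and *Mrps36* is now known as a subunit of the α-ketoglutarate dehydrogenase complex.

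The members together took 0.116% to 0.130% of the counts in WT SH, 0.104% to 0.106% in KO SH, 0.120% to 0.128% in WT MI and 0.114% to 0.136% in KO MI. CPM values use the library size after TMM scaling, and levels of different genes are compared per kb of annotated exon. On that scale *Mrpl18*, a large subunit protein of the family that binds 5S rRNA in other ribosomes, was the highest member with a mean of 107 CPM per kb over the 16 libraries. *Mrpl42* followed with 43.8 CPM per kb and *Mrps21* with 39 CPM per kb. In WT SH, *Mrpl42* had 52.7 ± 7.12 and *Mrps21* 44.4 ± 4.24 CPM per kb, while *Mrpl18* was at 120 ± 17.4 CPM per kb (SD, n = 4). Of these 2 neighbours *Mrpl42* also had the higher mean in KO SH (38.1 against 34.9), WT MI (42.9 against 41.1) and KO MI (41.3 against 35.7). Both genes were measured in the same libraries, so the SDs do not measure the spread of their order. The lowest members were *Mrpl54* with 0.837, *Mrpl55* with 1.21 and *Mrps26* with 1.27 CPM per kb. In WT SH, *Mrpl55* had 1.48 ± 0.157 and *Mrps26* 1.43 ± 0.185 CPM per kb (SD, n = 4). In KO SH the order of their means was reversed, at 0.944 and 1.14 CPM per kb. Per kb of coding sequence *Mrpl18* remained at rank 1, while *Mrpl42* was at rank 3, *Mrps21* at rank 5 and *Mrpl54* at rank 65. *Mrpl30* moved from rank 9 to rank 2 and *Mrps25* from rank 42 to rank 4. The order below *Mrpl18* thus depends on the length used.

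**Figure D1:**
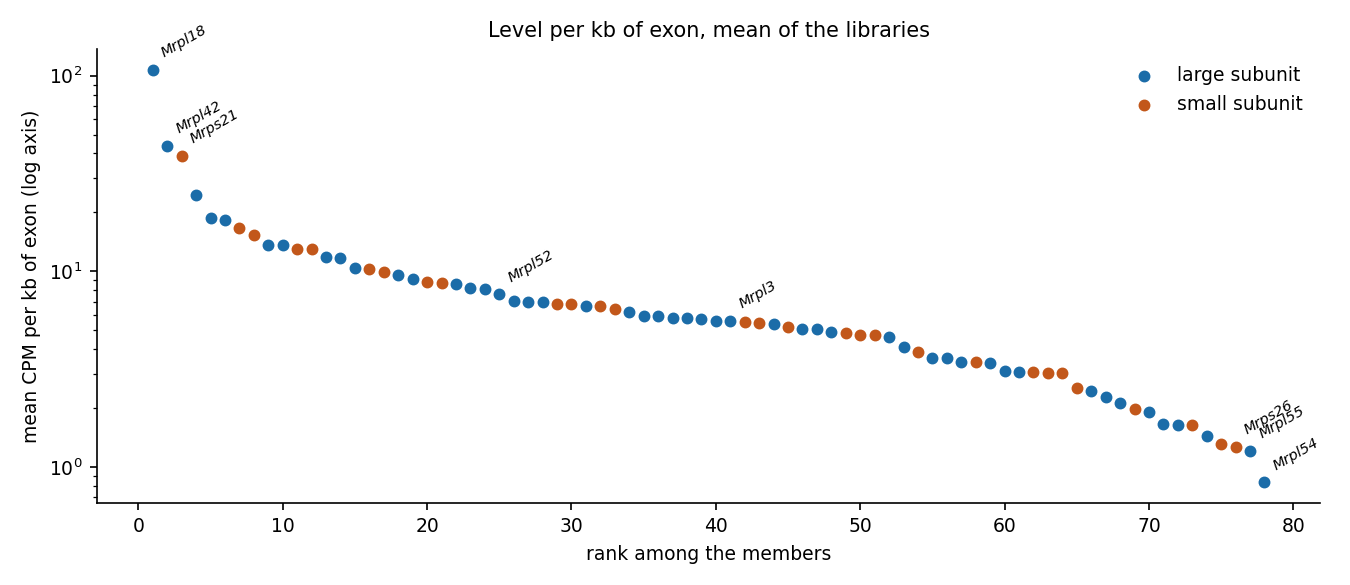
Each point is 1 member, placed by its rank (x axis) and by its mean level over 16 libraries in CPM per kb of annotated exon (log y axis), with large and small subunit names in separate colours. *Mrpl18* stands above the rest at 107 CPM per kb, and both subunits are spread along the whole order down to *Mrpl54* at 0.837 CPM per kb.

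Near-identical copies are a limit on such counts, since reads that match several genes are divided among them. A pseudogene transcript with at least 90% identity over at least 200 bases was found for 22 members. In none of these did the copies sum to over 10% of the member's own mean CPM, and neither *Mrpl3* nor *Mrpl52* had such a copy. The annotated exons of 5 members (*Mrpl33*, *Mrpl51*, *Mrps15*, *Mrps18c* and *Mrps6*) overlap another gene on the same strand, so that their counts may hold reads of that gene.

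The comparison of KO SH with WT SH shows how the sham-operated hearts of the *Lrrc10*-/- line differed from those of WT mice. In KO SH, 24 of the 78 members were lower and 0 higher than in WT SH (edgeR's quasi-likelihood F-test, two-sided, Benjamini-Hochberg adjusted p under 0.1 over 20159 genes), where 7.22% of all genes tested were called lower and 5.11% higher. At an unadjusted p under 0.05, 38 members were lower and 0 higher, against 12.3% of all genes lower. DESeq2 called 27 members lower and 0 higher, where it called 8.56% of all genes lower. The median log2 fold change was -0.21 over the members, against 0.005 over all genes tested, and 73 of the 78 members had a value below 0, where 49.0% of all genes did. The falls were small: 20 of the 24 lay between -0.21 and -0.47. Only 4 members, *Mrpl52*, *Mrpl3*, *Mrpl55* and *Mrpl34*, met the threshold for a differentially expressed gene (DEG), which adds a log2 fold change of 0.5 or more in either direction, where 2.53% of all genes were lower DEGs.

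*Mrpl3* (ENSMUSG00000032563; GRCm39 chromosome 9, 104930427 to 104958084, + strand) encodes a core protein of the large subunit near the site of peptide bond formation, and variants of it cause cardiomyopathy in infants. Its level was 36.0, 34.3, 26.5 and 26.4 CPM in WT SH replicates 1 to 4, while the KO SH libraries held 15.6, 16.6, 14.9 and 15.9 CPM. Every KO SH library was below every WT SH library, and the WT SH libraries themselves formed 2 pairs. The log2 fold change was -0.97 (SE 0.11, edgeR adjusted p = 4.59e-05), a 1.96-fold difference.

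*Mrpl52* (ENSMUSG00000010406; GRCm39 chromosome 14, 54664360 to 54668593, + strand) encodes a large subunit protein without a bacterial counterpart. It was at 32.4, 7.11, 32.9 and 6.82 CPM in WT SH replicates 1 to 4, while the KO SH libraries held 6.65, 5.64, 7.26 and 5.01 CPM. Replicates 1 and 3 of WT SH were high, and replicates 2 and 4 were at the level of the KO SH libraries, so the groups overlapped. The log2 fold change was -1.69 (SE 0.39, edgeR adjusted p = 0.0146), and this member had the largest spread within groups of all 78, with an SD of 0.641 on the log2(CPM + 0.5) scale against a median of 0.131.

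*Mrpl55* and *Mrpl34*, also large subunit genes, fell with no overlap between the groups. *Mrpl55* was at 6.44, 5.77, 5.35 and 5.05 CPM in WT SH and at 3.56, 3.51, 4.36 and 3.02 CPM in KO SH, a log2 fold change of -0.64 (SE 0.13, edgeR adjusted p = 0.00675). *Mrpl34* was at 4.63, 4.81, 4.4 and 4.09 CPM in WT SH and at 3.18, 2.81, 2.80 and 2.89 CPM in KO SH, a log2 fold change of -0.62 (SE 0.13, edgeR adjusted p = 0.00789). For both genes the lowest WT SH library was above the highest KO SH library.

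Of the stalk of the large subunit, where translation factors dock, 1 of 2 members was called. *Mrpl12*, the stalk protein that also binds the mitochondrial RNA polymerase, was at 32.4, 25.2, 26.5 and 23.9 CPM in WT SH and at 20.3, 20.1, 18.3 and 19.9 CPM in KO SH (log2 fold change -0.46, SE 0.09, edgeR adjusted p = 0.00465). *Mrpl10*, the base on which *Mrpl12* is mounted, had a log2 fold change of -0.05 (SE 0.10, edgeR adjusted p = 0.807). The difference between these 2 genes was not tested.

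Members linked to cardiomyopathy differed in their calls. *Mrps22*, a small subunit gene, was at 24.1, 21.1, 21.3 and 19.2 CPM in WT SH and at 17.2, 16.1, 18.6 and 16.9 CPM in KO SH, and it fell by 0.32 on the log2 scale (SE 0.10, edgeR adjusted p = 0.0507). *Mrps14*, also of the small subunit, fell by 0.28 on the log2 scale (SE 0.09, edgeR adjusted p = 0.0509). *Mrpl44*, which resembles an RNase III, had a log2 fold change of -0.09 (SE 0.09, edgeR adjusted p = 0.614).

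Among the 3 *Mrps18* paralogs, *Mrps18a* was called, with a log2 fold change of -0.36 (edgeR adjusted p = 0.054). The log2 fold change was -0.21 for *Mrps18b* (edgeR adjusted p = 0.342) and -0.17 for *Mrps18c* (edgeR adjusted p = 0.508), values that share its sign and miss the threshold. *Mrpl58*, a peptidyl-tRNA hydrolase that frees stalled ribosomes, was at -0.13 (edgeR adjusted p = 0.284) and *Mrps7*, a core protein of the small subunit, at -0.16 (edgeR adjusted p = 0.324). The members with the highest values were *Mrps10* at 0.06, *Mrpl49* at 0.03 and *Mrps12*, next to the decoding centre, at 0.01, with edgeR adjusted p of 0.597, 0.877 and 0.984.

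**Figure D2:**
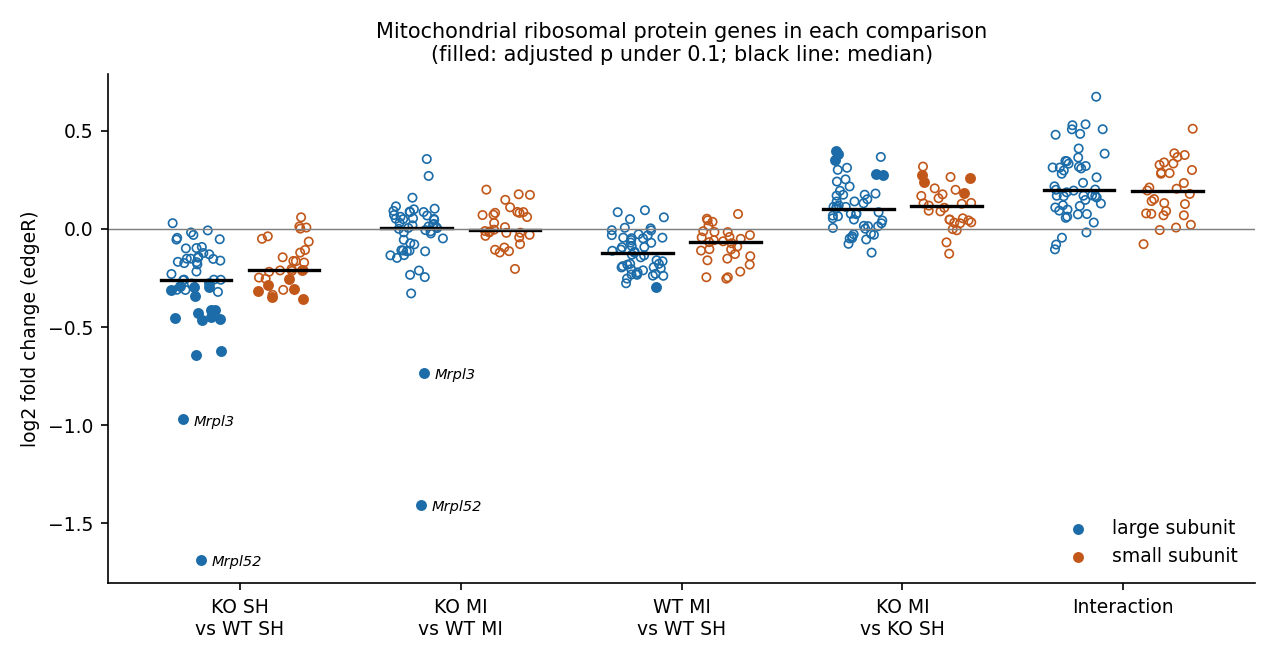
Each point is 1 member, with its edgeR log2 fold change (y axis) in each of 5 comparisons (x axis), split by large and small subunit names. Filled points have an adjusted p under 0.1 and black lines are medians. In KO SH against WT SH the points lie mostly below 0, in KO MI against WT MI the medians lie at 0.005 and -0.004 with *Mrpl52* and *Mrpl3* far below, and in the interaction 72 of 78 points lie above 0.

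Other measures moved with this comparison. The mean log2(CPM + 0.5) over the members was 3.73, 3.57, 3.62 and 3.51 in WT SH replicates 1 to 4 and 3.37 to 3.41 in KO SH, with no overlap, and replicate 1 of WT SH was the highest. That library also had the highest sum of cardiomyocyte markers, 41793 CPM, against 29490 to 30329 CPM in KO SH, and 4 of the 8 markers were called lower in KO SH (list median -0.17). *Myh6* alone was at 21837 CPM in that library and at 13576 to 14119 CPM in KO SH. Only *Pln* had a value above 0, with 1945 to 2250 CPM in WT SH and 2271 to 2445 CPM in KO SH. Of the other markers 1 of 6 cycling, 1 of 6 erythroid, 1 of 7 macrophage, 1 of 7 fibroblast and 0 of 6 endothelial genes were called lower and 0 higher by edgeR, with 4, 3, 1, 3 and 1 lower at an unadjusted p under 0.05 and medians of -0.31, -0.52, -0.23, -0.09 and -0.09. The cycling sum was 408 to 504 CPM in WT SH and 337 to 382 CPM in KO SH, and the erythroid sum 352 to 504 and 268 to 321 CPM. Their part in the result was not tested. Without replicate 1 of WT SH the count of members called was 14, where 4.22% of all genes were called lower. With *Xist* state as a covariate it was 26, where 7.31% of all genes were called lower. The members called were all lower in both fits.

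Members are short genes, and short genes as a whole leaned the same way in this comparison. Of 1207 tested protein-coding genes with a coding sequence of at most 500 bases, 203 were called lower and 24 higher, and their log2 fold changes had a median of -0.12. Of the 28 members in that range, 11 were lower and 0 higher, with a median of -0.26. Among genes with over 500 to 1000 coding bases, 331 of 3384 were called lower at a median of -0.05, and 10 of the 39 members in that range were called lower at a median of -0.20.

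The same genotype comparison was made post-MI. With WT MI as the reference, 2 of 78 members were lower in KO MI and 0 were higher, where 2.04% of all genes tested were called lower and 1.03% higher. At an unadjusted p under 0.05, 7 members were lower and 0 higher, against 6.75% of all genes lower. DESeq2 called 3 members lower and 0 higher, where it called 2.78% of all genes lower. The median log2 fold change was 0.005 over the members and 0.008 over all genes tested, with 41 members above 0 and 37 below, where 47.9% of all genes were below 0. The 2 members called were again *Mrpl3* and *Mrpl52*, both of them DEGs, where 1.16% of all genes were lower DEGs.

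Post-MI *Mrpl3* was at 24.8, 23.7, 32.3 and 25.1 CPM in WT MI replicates 1 to 4, while the KO MI libraries (numbered 1, 2, 3 and 7) held 15.4, 16.3, 17.4 and 14.3 CPM. The groups did not overlap, replicate 3 stood above the other WT MI libraries, and the log2 fold change was -0.73 (SE 0.11, edgeR adjusted p = 0.00135). *Mrpl52* was at 18.1, 22.7, 23.9 and 19.5 CPM in WT MI and at 7.16, 8.17, 7.54 and 8.99 CPM in KO MI, a log2 fold change of -1.41 (SE 0.38, edgeR adjusted p = 0.0713). All 4 WT MI libraries lay between the high and the low pair of WT SH. This call was lost in 7 of the 8 fits that left out 1 library of the contrast, with an adjusted p of up to 0.169, and also without KO MI replicates 2 and 7 (edgeR adjusted p = 0.171).

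The next lowest member post-MI was *Mrpl22*, a large subunit gene, at 2.59, 2.52, 2.63 and 2.65 CPM in WT MI and 2.30, 2.03, 2.35 and 1.55 CPM in KO MI, with a log2 fold change of -0.33 (edgeR adjusted p = 0.262). At the other end stood *Mrpl20* with 0.36 (edgeR adjusted p = 0.624), *Mrpl54* with 0.27 (edgeR adjusted p = 0.439) and *Mrps34* with 0.20 (edgeR adjusted p = 0.58). For *Mrpl12* the log2 fold change was 0.05 (SE 0.09), with 21.5, 25.1, 23.8 and 21.8 CPM in WT MI and 23.6, 25.6, 25.0 and 21.2 CPM in KO MI, so the groups overlapped.

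**Figure D3:**
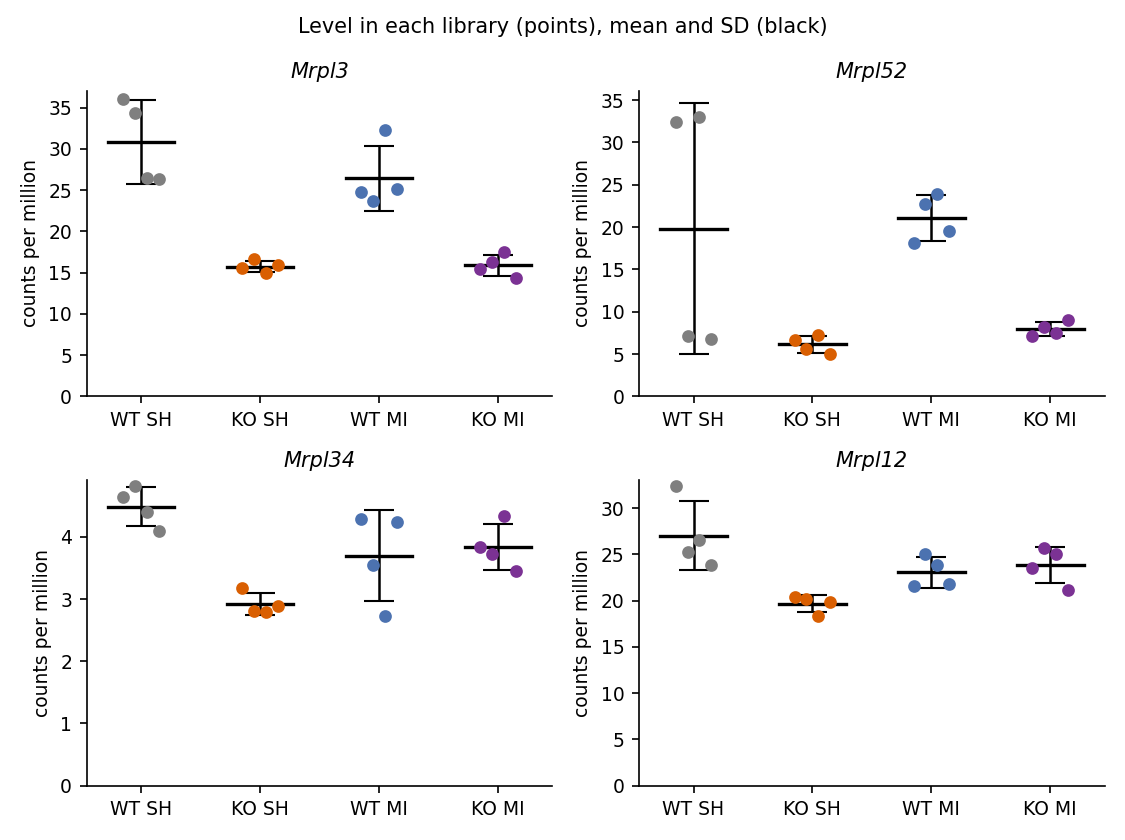
Levels of *Mrpl3*, *Mrpl52*, *Mrpl34* and *Mrpl12* in CPM (y axis, from 0) in each library (points) of the 4 groups (x axis), with the mean and the SD in black. *Mrpl3* is lower in every KO library than in every WT library, *Mrpl52* splits WT SH into a pair at 32.4 and 32.9 CPM and a pair at 7.11 and 6.82 CPM, and *Mrpl34* and *Mrpl12* have their lowest group mean in KO SH.

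Genes whose level most resembled each member over the 16 libraries were listed as the 10 tested genes with the highest Pearson r on the log2(CPM + 0.5) scale, a description over libraries that share 4 groups. For *Mrpl3*, 6 of the 10 lie within 20 Mb of it on chromosome 9, and for *Mrpl52*, 6 of the 10 lie within 20 Mb of it on chromosome 14. *Mrps12* had 4 and *Mrpl33* had 3 such neighbours, 13 members had 1 and 61 had 0. The genes named next were chosen after their values were seen.

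Among the genes most like *Mrpl3* was *Rpl29*, a cytosolic ribosomal protein gene 1.38 Mb away (r = 0.966). *Rpl29* was at 108, 103, 61.5 and 53.9 CPM in WT SH and at 57, 60.2, 98.4 and 56.1 CPM in WT MI. The same libraries, WT SH 1 and 2 and WT MI 3, were high for *Mrpl3* and for *Rpl29*, while the 8 KO libraries had 14.6 to 21.8 CPM of *Rpl29*. Its log2 fold change was -2.29 (SE 0.22, edgeR adjusted p = 7.8e-06) in KO SH and -1.83 (SE 0.22, edgeR adjusted p = 0.000185) in KO MI, each against the matching WT group.

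The closest to *Mrpl52* was *Rpph1*, the RNA of nuclear RNase P, 3.62 Mb away (r = 0.978). *Rpph1* was at 34.8, 2.94, 61.6 and 1.64 CPM in WT SH and at 22.5 to 27.1 CPM in WT MI, so that WT SH replicates 1 and 3 were high and 2 and 4 low for both genes. Within 1 Mb on either side of *Mrpl52*, 36 genes were tested, of which 8 were called lower in KO SH, among them the cardiomyocyte marker *Myh6*. Of the 8, only the cardiac long non-coding RNA *Mhrt* was also called lower post-MI. Within 1 Mb of *Mrpl3*, 17 genes were tested, and the same 3 (*Aste1*, *Acad11* and *Gm38077*) were called lower in both KO comparisons. Over all genes tested, 7.22% were called lower in KO SH and 2.04% in KO MI, each against the matching WT group.

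The start regions of these 2 genes and of *Mrpl34*, another DEG in KO SH, are shown because motifs for ETS factors such as GABP recur in promoters of nuclear genes for mitochondria. That of *Mrpl55*, also a DEG in KO SH, is not shown. The runs shown all hold an ETS motif, so they are examples and do not give its share among the DEGs. Each run covers 120 bases before to 30 bases from the annotated start of the canonical transcript, in GRCm39 on the + strand, with copies of the ETS core CCGGAAG or its reverse complement in capitals.
Mrpl3, chr9:104930318-104930467: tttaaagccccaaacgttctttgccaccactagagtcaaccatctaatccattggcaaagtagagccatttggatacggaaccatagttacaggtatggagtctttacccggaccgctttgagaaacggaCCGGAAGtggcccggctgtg
Mrpl52, chr14:54664240-54664389: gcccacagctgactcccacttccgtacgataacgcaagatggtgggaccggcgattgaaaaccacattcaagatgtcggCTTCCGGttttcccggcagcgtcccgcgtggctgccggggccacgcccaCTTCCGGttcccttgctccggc
Mrpl34, chr8:71917435-71917584: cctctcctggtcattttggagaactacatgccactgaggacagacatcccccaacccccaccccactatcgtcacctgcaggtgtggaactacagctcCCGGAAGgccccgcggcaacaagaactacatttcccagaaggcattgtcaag

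Counted from 1 at the start base, the core begins at position 11 in *Mrpl3*, at positions -41 and 9 (reverse strand) in *Mrpl52* and at position -22 in *Mrpl34*. Over the window from 250 bases before to 50 bases after the start, on both strands, CCGGAAG was found in 24 of the 78 members (30.8%), against 10.3% of 21426 protein-coding promoters and 13.9% of the promoters of genes tested. Of the 24 members called in KO SH, 10 had it, and of the 54 others, 14 had it. The core GCATGCGC of NRF1, a regulator of nuclear genes for mitochondria, was found in 7 members (8.97%), 3.71% of all promoters and 4.42% of those of genes tested, and 1 of the 7 was among the members called. The YY1 core AAGATGGC was in 7.69% of members, 2.48% of all promoters and 3.13% of those of genes tested. The Sp1 core GGGCGGG was in 35.9% of members, above the 31.0% of all promoters and below the 40.6% of those of genes tested, and the E-box CACGTG was in 6.41%, 7.85% and 9.53%. None of the 5 strings contains another, and these matches describe letters in a window and not binding.

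In WT hearts, which regenerate after infarction at this age, 1 member was called. It was lower in WT MI than in WT SH, and 0 of the 78 members were higher, where 2.21% of all genes tested were called lower and 3.11% higher. At an unadjusted p under 0.05, 11 members were lower and 0 higher, against 7.94% of all genes lower. DESeq2 called 2 members lower and 0 higher, where it called 3.37% of all genes lower. The median log2 fold change was -0.10 over the members and -0.004 over all genes tested, with 67 members below 0, where 50.9% of all genes were. The member called was *Mrpl42*, a large subunit gene, at 48.8, 39.8, 37.8 and 36.7 CPM in WT SH and at 30.3, 36.8, 35.3 and 30.6 CPM in WT MI. Its log2 fold change was -0.30 (SE 0.09, edgeR adjusted p = 0.0997), just inside the threshold, and the groups overlapped, with the lowest WT SH library at 36.7 and the highest WT MI library at 36.8 CPM.

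*Mrpl34*, with a log2 fold change of -0.28 (edgeR adjusted p = 0.281), and *Mrps28*, with -0.25 (edgeR adjusted p = 0.389), followed it. *Mrpl24*, *Mrpl52* and *Mrps10* had the highest values, 0.10, 0.09 and 0.08, with edgeR adjusted p of 0.502, 0.937 and 0.559. The value of *Mrpl52* had an SE of 0.37, since its WT SH libraries stood in 2 pairs. The call of *Mrpl42* was lost in 7 of the 8 fits without 1 library of the contrast, and without WT SH replicate 4 the count of members called was 5, where 2.9% of all genes were called lower. The call was also lost with *Xist* state as a covariate (edgeR adjusted p = 0.143), which left 0 members called.

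Cell markers moved in WT MI against WT SH too. Of 8 cardiomyocyte genes 3 were called lower (median -0.26), as was 1 of 6 endothelial genes (median -0.17, all 6 lower at an unadjusted p under 0.05), while 3 of 7 fibroblast, 2 of 7 macrophage and 2 of 6 cycling genes were called higher (medians 0.17, 0.42 and 0.30). The cardiomyocyte sum was 30222 to 41793 CPM in WT SH and 28652 to 30335 CPM in WT MI, the endothelial sum 881 to 903 and 731 to 823 CPM, and the fibroblast sum 2144 to 2523 and 2602 to 3055 CPM. Their part in the values of the members was not tested.

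In *Lrrc10*-/- hearts the members that were called after infarction were higher. In KO MI, 9 of 78 members were higher and 0 lower than in KO SH, where 10.2% of all genes tested were called higher and 7.32% lower, so the share of members was close to the background. The median log2 fold change was 0.11 over the members and -0.01 over all genes tested, with 65 members above 0, where 51.9% of all genes were below 0. At an unadjusted p under 0.05, 16 members were higher and 0 lower, against 14.3% of all genes higher. DESeq2 called 13 members higher and 0 lower, where it called 11.3% of all genes higher. None of the members was a DEG, against 7.42% of all genes. The 9 were *Mrps5*, *Mrps11*, *Mrps22* and *Mrps25* of the small subunit and *Mrpl12*, *Mrpl34*, *Mrpl41*, *Mrpl43* and *Mrpl54* of the large subunit. All but *Mrpl54* were also among the 24 called lower in KO SH against WT SH, a comparison that uses the same KO SH libraries.

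*Mrpl41*, a large subunit protein, was at 13.5, 14.5, 11.3 and 12.6 CPM in KO SH and at 15.6, 18.7, 16 and 15.9 CPM in KO MI (log2 fold change 0.35, SE 0.10, edgeR adjusted p = 0.0346). *Mrpl12* rose from 18.3 to 20.3 CPM in KO SH to 21.2 to 25.6 CPM in KO MI (log2 fold change 0.28, SE 0.09, edgeR adjusted p = 0.0472). Neither gene overlapped between the groups.

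*Mrpl34* was at 3.84, 3.72, 4.34 and 3.45 CPM in KO MI, all above KO SH (log2 fold change 0.40, SE 0.13, edgeR adjusted p = 0.0557), and *Mrpl54* was at 2.73, 3.16, 3.03 and 2.99 CPM in KO SH and 3.80, 4.92, 3.68 and 3.08 CPM in KO MI (log2 fold change 0.38, SE 0.14, edgeR adjusted p = 0.0779). *Mrpl52* had a log2 fold change of 0.37 with an SE of 0.39 (edgeR adjusted p = 0.607). At the lower end were *Mrps28* with -0.13 (edgeR adjusted p = 0.626), *Mrpl44* with -0.12 (edgeR adjusted p = 0.46) and *Mrpl39* with -0.08 (edgeR adjusted p = 0.501).

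This count rested on single libraries. It was 1 without KO MI replicate 2, 2 without KO MI replicate 3 and 24 without KO MI replicate 7, and it was 4 without KO SH replicate 1, 3 or 4 and 5 without KO SH replicate 2. Without KO MI replicates 2 and 7, which hold the skeletal muscle genes, it was 15. The share of all genes called higher was 6.09% without KO MI replicate 2, 15.2% without KO MI replicate 7 and 9.49% without both. It was 7.33% without KO MI replicate 3 and 7.34% to 7.89% without 1 KO SH library. In KO MI replicate 7 the mean log2(CPM + 0.5) of the members was 3.31, against 3.53 to 3.56 in replicates 1 to 3. That library also had the lowest sums of erythroid (227 CPM), cardiomyocyte (27113 CPM) and endothelial (681 CPM) markers of all 16. Its fibroblast, macrophage and cycling sums were not the lowest.

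Markers of cell types moved in the same comparison. In KO MI against KO SH all 6 erythroid genes, 6 of 7 macrophage genes, all 6 cycling genes and 4 of 7 fibroblast genes were called higher and none lower, with median log2 fold changes of 1.04, 0.98, 0.69 and 0.31. Of 6 endothelial genes 2 were called lower and 0 higher (median -0.14). Of 8 cardiomyocyte genes 2 were called lower and 2 higher (median -0.13). The erythroid sum was 268 to 321 CPM in KO SH and 227 to 740 CPM in KO MI, the macrophage sum 45.8 to 53.9 and 58.1 to 121 CPM, the fibroblast sum 2007 to 2205 and 2756 to 3100 CPM, and the cycling sum 337 to 382 and 504 to 686 CPM. Their part in the values of the members was not tested.

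Whether the difference between KO and WT changed between sham and post-MI hearts was tested as an interaction. It is the KO against WT value post-MI minus that after sham. None of the 78 members passed (0 higher, 0 lower), where 0.0248% of all genes tested were called, but 22 members had an unadjusted p under 0.05, all with values above 0, against 7.56% of all genes above 0 at that p. DESeq2 called 7 members, all above 0, where it called 1.69% of all genes above 0 and 1.14% below. The median of the interaction was 0.20 over the members and 0.002 over all genes, with 72 members above 0, where 49.7% of all genes were below 0. The interaction contains all 4 groups, so it holds the same libraries as the comparisons above.

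*Mrpl34* had the highest interaction, 0.67 (SE 0.18, edgeR adjusted p = 0.179). Its WT MI libraries, at 4.29, 3.55, 2.72 and 4.24 CPM, all lay below the WT SH mean of 4.48 CPM, while all its KO MI libraries lay above the KO SH mean of 2.92 CPM. *Mrpl55* with 0.53 (edgeR adjusted p = 0.229) and *Mrpl54* with 0.53 (edgeR adjusted p = 0.252) came next, and *Mrpl12* with 0.51 had an edgeR adjusted p of 0.15. The lowest were *Mrpl23* with -0.10, *Mrpl24* with -0.08 and *Mrps10* with -0.08, with edgeR adjusted p of 0.766, 0.742 and 0.719.

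The interaction count also turned on single libraries: it was 25 without KO MI replicate 7, 3 without WT SH replicate 4 and 10 without KO MI replicates 2 and 7, all above 0, and 0 in each of the other 14 fits without 1 library. Those fits called 5.36%, 0.515% and 2.2% of all genes above 0, in the same order. The 4 group means of the member average stood in the order WT SH (3.61), WT MI (3.52), KO MI (3.49) and KO SH (3.39) on the log2(CPM + 0.5) scale. KO SH was below every library of WT SH and WT MI, whereas WT MI and KO MI overlapped. The mean share of all counts, taken without TMM scaling, stood in another order. It was 0.126% in KO MI, 0.124% in WT MI, 0.121% in WT SH and 0.105% in KO SH. WT MI was thus below WT SH by the log2 average and above it by the share.

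Large and small subunit genes had like medians in KO SH against WT SH. There 17 of 49 large subunit genes and 7 of 29 small subunit genes were called lower, with medians of -0.26 and -0.21, a difference of -0.05 that lay between -0.06 and 0.01 in fits without 1 library. In KO MI against WT MI the medians were 0.005 and -0.004, in WT MI against WT SH -0.12 and -0.07, in KO MI against KO SH 0.10 and 0.12, and in the interaction 0.20 for both. Placing *Mrps18a* and *Mrps30* in the large subunit and leaving out *Mrps36* gave a difference of -0.05 in KO SH. No difference in the 5 comparisons moved by as much as 0.0295, the SD between single libraries of the large minus small level.

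Means over genes, which single large falls can move, separated the subunits more. The large minus small difference in mean log2(CPM + 0.5) was 0.116, 0.025, 0.088 and 0.023 in WT SH replicates 1 to 4 and -0.034 to -0.020 in KO SH, with no overlap. It was -0.004 to 0.070 in WT MI and -0.043 to -0.005 in KO MI, ranges that nearly touch. Without *Mrpl3* and *Mrpl52* the difference was 0.007 to 0.059 in WT SH and -0.036 to -0.015 in KO SH, still apart, while WT MI (-0.047 to 0.028) and KO MI (-0.044 to -0.006) overlapped. The sum of CPM over large subunit genes was 2.12 to 2.33 times that over small subunit genes in WT SH, and 2.0 to 2.04, 2.07 to 2.14 and 2.01 to 2.05 times in KO SH, WT MI and KO MI.

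**Figure D4:**
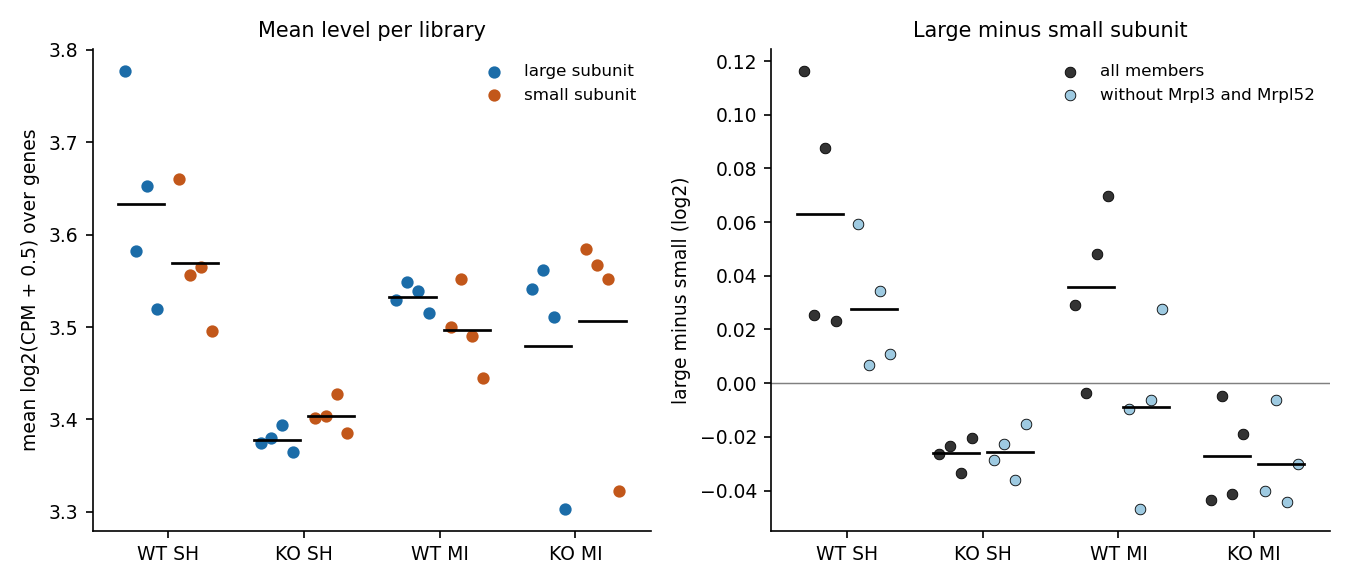
Left, the mean log2(CPM + 0.5) over the 49 large and the 29 small subunit genes in each library (points) by group (x axis). Right, their difference, with all members and without *Mrpl3* and *Mrpl52*. Black lines are group means. Both subunits are lowest in KO SH apart from KO MI replicate 7, and the difference is above 0 in all WT SH libraries and below 0 in all KO SH libraries.

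Other genes of mitochondrial protein synthesis were read from lists. None of the 5 further subunits without an Mrp symbol (*Dap3*, *Ptcd3*, *Gadd45gip1*, *Chchd1* and *Aurkaip1*) was called in KO SH against WT SH by edgeR or by DESeq2, with 2 at an unadjusted p under 0.05 and a median of -0.05. *Dap3*, the GTP-binding protein of the small subunit, had a log2 fold change of 0.16 (SE 0.06, edgeR adjusted p = 0.109), the opposite sign to most members.

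Of 16 translation factors and partners, 4 were lower and 1 was higher in KO SH, with a median of -0.14. The lower ones were the mRNA-binding pair *Slirp* (-0.43, edgeR adjusted p = 0.0476) and *Lrpprc* (-0.28, edgeR adjusted p = 0.0385), the translational activator *Taco1* (-0.34, edgeR adjusted p = 0.0501) and the membrane insertase *Oxa1l* (-0.25, edgeR adjusted p = 0.0726). *Mtfmt*, which formylates the initiator tRNA, was higher (0.27, edgeR adjusted p = 0.0743). *Oxa1l* lies within 1 Mb of *Mrpl52*.

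Of 28 assembly factors, only *Mrm3*, a 16S rRNA methyltransferase, was called lower in KO SH (-0.82, SE 0.17, edgeR adjusted p = 0.00639), and the median of the list was -0.11. Of 17 mitochondrial aminoacyl-tRNA synthetases, *Ears2* (0.51, edgeR adjusted p = 0.00292) and *Wars2* (0.44, edgeR adjusted p = 0.00503) were higher and *Aars2* (-0.47, edgeR adjusted p = 0.0328) was lower. *Ears2* and *Wars2* were also higher in KO MI against WT MI (0.54 and 0.41).

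Of 10 genes of mitochondrial transcription and replication, 0 were called in KO SH against WT SH by edgeR or by DESeq2, and 2 had an unadjusted p under 0.05. Of 9 regulators, the coactivator *Ppargc1a* was lower in KO SH (-0.46, SE 0.16, edgeR adjusted p = 0.0986) and in KO MI (-0.63, SE 0.16, edgeR adjusted p = 0.0613), each against the matching WT group, and DESeq2 called it post-MI but not after sham.

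The RNA partners of these proteins are encoded in mitochondrial DNA. In KO SH against WT SH, 0 of the 2 mitochondrial rRNAs and 0 of 13 mitochondrial mRNAs were called by edgeR or by DESeq2, 0 had an unadjusted p under 0.05, and the medians were -0.04 and 0.007. The mRNA of *mt-Co2* was barely counted, at 0 to 17.5 CPM over the libraries, against 25679 to 37368 CPM for *mt-Co1*. Post-MI, in KO MI against KO SH, both rRNAs fell, *mt-Rnr1* by 0.48 (SE 0.12, edgeR adjusted p = 0.013) and *mt-Rnr2* by 0.34 (SE 0.08, edgeR adjusted p = 0.00974) on the log2 scale. Of the 13 mRNAs 5 were lower, the reverse of the direction of the 9 members called. Since rRNA was depleted before sequencing, the rRNA counts may also differ with the depletion of each library, which was not tested. In WT MI against WT SH, 2 of the 13 mRNAs were lower, and the rRNA values were -0.27 (edgeR adjusted p = 0.253) and -0.19 (edgeR adjusted p = 0.207). Leaving mitochondrially encoded genes out of the library sizes left every count of members called as it was.

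Nuclear genes of oxidative phosphorylation (OXPHOS), whose mitochondrially encoded partners these ribosomes make, and cytosolic ribosomal protein genes were set beside the members. In KO SH against WT SH, 43 of 85 OXPHOS genes and 43 of 90 cytosolic ribosomal protein genes were lower and 0 higher, with medians of -0.27 and -0.23, so the members were not alone in it. In KO MI against WT MI the medians were -0.10 and 0.04. Against KO SH, KO MI had 42 cytosolic ribosomal protein genes higher and 1 lower at a median of 0.22, and 4 OXPHOS genes higher and 5 lower at a median of 0.02. The medians of the interaction were 0.16 for OXPHOS genes and 0.26 for cytosolic ribosomal protein genes. No test of the difference between lists was made.

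**Figure D5:**
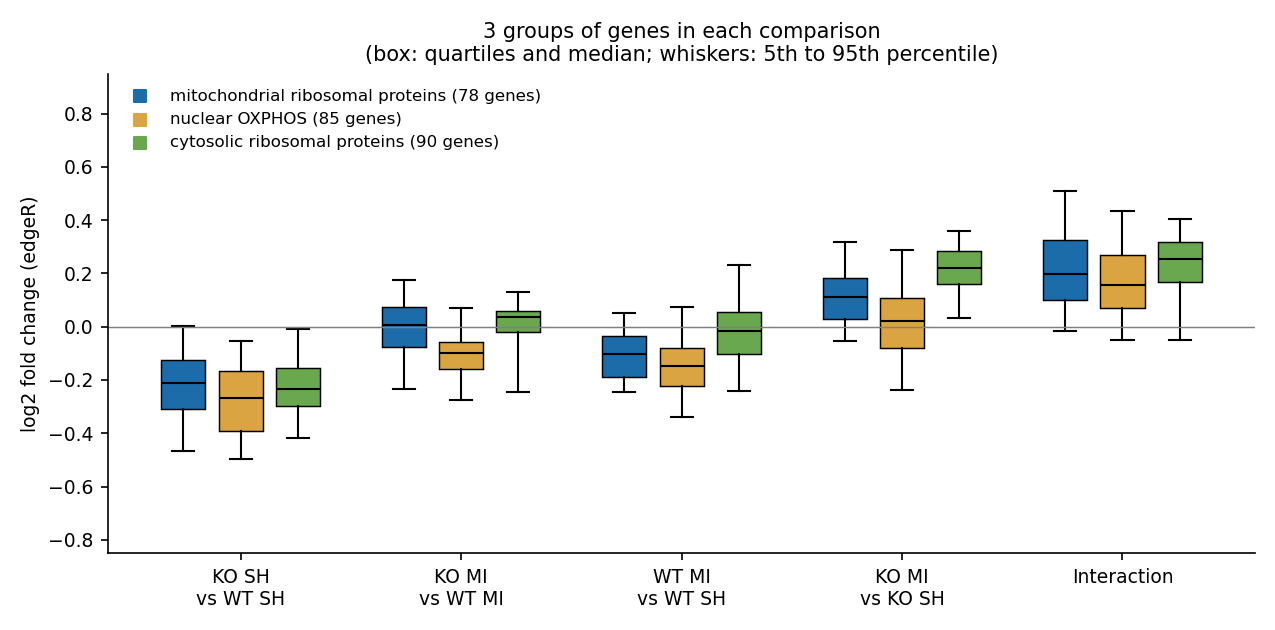
Boxes show the quartiles and the median of edgeR log2 fold changes (y axis) of 78 members, 85 nuclear OXPHOS genes and 90 cytosolic ribosomal protein genes in 5 comparisons (x axis), with whiskers from the 5th to the 95th percentile. The medians of all 3 groups lie below 0 in KO SH against WT SH and above 0 in the interaction, where the lower whiskers cross 0, and the cytosolic ribosomal proteins have the highest median, 0.22, in KO MI against KO SH.

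The likeness of members to each other was read from correlations. The median Pearson r over pairs of members across the 16 libraries was 0.421, against 0.634 over pairs of OXPHOS genes and 0.541 over pairs of cytosolic ribosomal protein genes, as a description over libraries that share groups and depth. Their median SD within groups was 0.131 on the log2(CPM + 0.5) scale, against 0.156 over all genes tested. The steadiest member was *Mrps10*, with an SD of 0.056, and after *Mrpl52* the least steady were *Mrps12* with 0.325 and *Mrpl20* with 0.324. *Mrps12* was at 2.48, 1.95, 0.972 and 3.41 CPM in WT SH, and *Mrpl20* at 4.67, 2.01, 2.63 and 1.91 CPM, with the widest spread in WT SH for both genes. Among the 10 genes most like each member, 49 of the 78 members had no other member, and the rest had 1 to 3. Since members are only 78 of the 20159 genes tested, 10 genes taken at random would rarely hold another member. No median r over all genes was computed.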

How the data were processed

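RNA of full heart ventricles from 16 mice was sequenced. The authors deposited the expected counts of RSEM for each gene, not normalized and given as whole numbers. The 16 columns were mapped to their libraries by title. The study's methods name Skewer, STAR and RSEM on GRCm39 with strand-specific read pairs. The submitters' processing notes instead list bcl2fastq 2.17, cutadapt 3.4, FastQC, HISAT2 2.2.1, RSEM 1.1.17 and DESeq2, and the 2 sources could not be reconciled. The annotation release is not given in the sources used here. GENCODE M39 (GRCm39) named 47772 of 51912 identifiers, and the others held 0.57% to 0.786% of a library's counts. Reads matching more than 1 gene are shared out by RSEM, which makes counts of near-identical copies uncertain.

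Members and gene lists were chosen with earlier results of these data known. Genes were kept when the counts of every group summed to 10 or more (20159 genes) and fitted in R 4.3.3 with edgeR 4.0.16 (TMM, quasi-likelihood F-test, two-sided, 1 coefficient per group, all 16 libraries) and limma 3.58.1. A member was called at a Benjamini-Hochberg adjusted p under 0.1 over all genes tested. A DEG also had a log2 fold change of 0.5 or more in either direction. Both thresholds and the count minimum follow the study's methods, which used DESeq2. The SE is the log2 fold change divided by the root of F. Replicates are separate libraries of a group by the labels, and the p-values measure only the spread between them. At these depths 3 counts, the floor, correspond to 0.0577 to 0.0858 CPM, and every member was above it. The fit was tested on simulated counts. Named members are all DEGs, the 3 highest and 3 lowest log2 fold changes of each comparison among members with a mean of at least 1 CPM, the 3 highest and 3 lowest levels per kb, and members with a known role that were listed by name. Pseudogene copies were found with blastn 2.17.0. Alternatives were DESeq2 1.42.0, its size factors in edgeR, mitochondrially encoded genes left out, no filter, filterByExpr, only the groups of the contrast, the replicate number as a block, *Xist* state (over 100 CPM) as a covariate and each library left out. After the data were seen, KO MI replicates 2 and 7 were left out together and the subunits were assigned by structure. Protein sequences were not analysed here.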

Additional observations from a re-analysis of the deposited data

Results flagged for a closer look

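Single libraries stood apart from the other 3 of their group in 5 of 112 groups of 4 values examined, where chance flags about 1 in 20. *Mrpl10* was at 10.7 CPM in KO MI replicate 7, against 14.5 to 14.9 CPM in the other KO MI libraries. *Mrps34* was at 3.34 CPM in the same library, against 4.0 to 4.11 CPM. The mean log2(CPM + 0.5) over all members was 3.31 there, against 3.53 to 3.56. *Mrpl3* was at 32.3 CPM in WT MI replicate 3, against 23.7 to 25.1 CPM in the other WT MI libraries. *Mrpl49* was at 10.4 CPM in WT SH replicate 2, against 8.87 to 9.04 CPM in the other WT SH libraries.

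For 8 of the 78 members (10.3%) every WT MI library lay below the WT SH mean and every KO MI library above the KO SH mean, and for 0 members the reverse held. Over all genes tested 1.98% showed the first pattern and 2.39% the reverse. Of the named members these were *Mrpl12*, *Mrpl34* and *Mrps34*, with WT MI below WT SH and KO MI above KO SH. Their interaction values were 0.51 (SE 0.12, edgeR adjusted p = 0.15), 0.67 (SE 0.18, edgeR adjusted p = 0.179) and 0.51 (SE 0.18, edgeR adjusted p = 0.24) on the log2 scale, so none of them passed that test.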

How the results depend on the processing

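The median log2 fold change of the members moved by less than 0.0778 under every alternative run. That is the SD between libraries of the mean log2 level of the members. It describes single libraries and does not measure the precision of a median between groups. In fits without 1 library it ranged from -0.25 to -0.18 in KO SH against WT SH, from -0.03 to 0.06 in KO MI against WT MI, from -0.13 to -0.06 in WT MI against WT SH, from 0.07 to 0.16 in KO MI against KO SH and from 0.15 to 0.26 in the interaction. The number of members called in KO SH against WT SH was 22 to 33 under the other alternatives, and 14 to 29 without 1 library, with 4 to 7 DEGs. Of all genes, 3.89% to 10.8% were called lower under the other alternatives and 4.22% to 8.17% without 1 library.

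In KO MI against WT MI it was 1 to 3 without 1 library, with 1 to 2 DEGs, and without KO MI replicates 2 and 7 there was 1 DEG. The fits without 1 library called 1.21% to 3.6% of all genes lower. In WT MI against WT SH it was 2 with DESeq2 and with filterByExpr, 0 with DESeq2 size factors and with *Xist* state, 3 with the replicate block and 0 to 5 without 1 library. Those fits called 3.37%, 2.83%, 2.28%, 1.38%, 3.74% and 0.882% to 2.9% of all genes lower, in the same order. In KO MI against KO SH it was 5 with no filter and with only the groups of the contrast, 15 without KO MI replicates 2 and 7, 20 with the replicate block and 1 to 24 without 1 library. Those fits called 5.95%, 6.92%, 9.49%, 13.8% and 6.09% to 15.2% of all genes higher, in the same order. In the interaction it was 7 with DESeq2 (2 DEGs), 10 without KO MI replicates 2 and 7 (2 DEGs), 19 with the replicate block (5 DEGs) and 0 to 25 without 1 library (0 to 6 DEGs). Those fits called 1.69%, 2.2%, 4.36% and 0.01% to 5.36% of all genes above 0, in the same order. The causes were not tested.

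The labels do not say that the replicate numbers pair the libraries, so the block is given only here. Deviations of same-numbered libraries correlated between -0.131 and 0.175. Libraries with different numbers were not compared in this way, so these values do not settle whether the numbers pair the libraries. The block called 33 members in KO SH against WT SH and 3 in KO MI against WT MI. Of all genes it called 9.99% and 3.29% lower in these comparisons. Number 7 occurs only in KO MI, so the block gives KO MI replicate 7 its own coefficient. In comparisons with KO MI the block is therefore close to leaving that library out. The large minus small difference of medians ranged from -0.0618 to 0.0118 in KO SH against WT SH, from -0.0419 to 0.0257 in KO MI against WT MI, from -0.0705 to -0.0405 in WT MI against WT SH, from -0.0238 to 0.0167 in KO MI against KO SH and from -0.0237 to 0.0327 in the interaction without 1 library, and it was 0.0361 in the interaction with *Xist* state. Signs turned in fits without 1 library for *Mrpl52* in WT MI against WT SH (-0.19 and -0.20 without WT SH replicates 2 and 4, range -0.20 to 0.44) and for *Mrps12* in KO SH against WT SH (-0.01, -0.02, -0.04 and -0.22, range -0.22 to 0.30), neither of them called. The lowest member value was 0.972 CPM (*Mrps12* in a WT SH library), above the floor of 3 counts in every library.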
